A study of Mus musculus with 3 samples.

Results

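The 7 genes described here are negative regulators and pathway components that canonical WNT signalling is known to induce: Axin2, Nkd1, Nkd2, Apcdd1, Lgr5, Lef1 and Tcf7. They were chosen by name, and all 7 were present among the 27998 gene identifiers of the deposited tables. Their levels were read in every class of cell of 3 single-cell libraries of dorsal skin from male C57BL/6 mice aged 7 to 9 weeks. The 3 groups were non-lesional skin and wound beds 2 and 7 days after wounding. The wound went through the whole skin, measured 1.0 cm by 0.5 cm, and was made in telogen, the resting phase of the hair cycle. No transgene, mutation or drug is given for any group, and each group is 1 library, with the number of mice behind it not given in the labels. There is therefore no test between groups here, and every interval is an exact 95% counting interval that covers counting error only.

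In canonical WNT signalling, a WNT ligand bound to a frizzled receptor stops a complex of proteins from destroying beta-catenin, which then enters the nucleus and binds factors of the TCF/LEF family. Several genes switched on in this way act back on the pathway. Axin2 is a scaffold of the destruction complex, Nkd1 and Nkd2 bind Dishevelled proteins, and Apcdd1 is a membrane inhibitor. Lgr5 is a receptor for R-spondins, and Lef1 and Tcf7 are themselves nuclear partners of beta-catenin. In skin, this pathway is known for its roles in the dermal papilla (the cluster of mesenchymal cells that instructs the hair follicle), in hair follicle stem cells and in dermal fibroblasts. Lef1 and Tcf7 are also known as T cell factors.

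The genes lie apart in the genome. On GRCm38 with the GENCODE M21 annotation, Axin2 (ENSMUSG00000000142) is on chromosome 11 from 108920349 to 108950783 on the plus strand, and Tcf7 (ENSMUSG00000000782) is on the same chromosome from 52252371 to 52283014 on the minus strand. Lef1 (ENSMUSG00000027985) is on chromosome 3 from 131110471 to 131224356, plus strand. Nkd1 (ENSMUSG00000031661) is on chromosome 8 from 88521354 to 88594884, plus strand, and Nkd2 (ENSMUSG00000021567) on chromosome 13 from 73818534 to 73847631, minus strand. Lgr5 (ENSMUSG00000020140) is on chromosome 10 from 115450311 to 115587780, minus strand. The identifier of Apcdd1 is ENSMUSG00000071847.

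Of the 7 genes, 5 had an entry in the RefSeq promoter table of GRCm38.p6, Lgr5 and Apcdd1 being the other two. The 250 bases before the first RefSeq start of Axin2 and of Lef1 are printed as those of 1 inhibitor and 1 nuclear factor. In non-lesional skin fibroblast-like and keratinocyte-like cells held 55.0% and 31.4% of the UMIs of Axin2, near their 58.7% and 31.3% of all UMIs. Papilla-like cells held 82.7% of the UMIs of Lef1, against 3.98% of all UMIs. The windows are chr11:108920099-108920348 and chr3:131110047-131110296, both on the plus strand, and capitals mark CTTTG, the core of the TCF/LEF motif.
Axin2: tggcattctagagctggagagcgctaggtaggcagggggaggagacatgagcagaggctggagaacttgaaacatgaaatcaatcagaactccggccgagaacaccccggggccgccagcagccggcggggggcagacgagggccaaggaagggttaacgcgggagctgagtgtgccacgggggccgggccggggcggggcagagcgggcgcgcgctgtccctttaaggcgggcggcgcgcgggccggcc
Lef1: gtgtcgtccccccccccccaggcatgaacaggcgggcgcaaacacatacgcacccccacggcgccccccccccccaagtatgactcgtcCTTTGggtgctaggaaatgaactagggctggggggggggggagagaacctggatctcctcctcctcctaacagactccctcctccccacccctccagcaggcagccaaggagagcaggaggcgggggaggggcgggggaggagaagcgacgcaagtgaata
Both strands were searched for CTTTG and for the longer forms CTTTGAA and CTTTGAT, each of which contains CTTTG. The printed Lef1 window held 1 match to the core, 161 bases before the start, and the printed Axin2 window held 0. For Lef1 this is the first RefSeq start, which lies before the GENCODE start at 131110471. The longer forms were found in 0 of the windows of the 5 genes, against 8.65% of all 32851 windows of the same length, which reach 50 bases past the start. The core was found in 53.9% of all windows. Over the same length the Lef1 windows held 2, 2, 1 and 3 matches to the core, and the windows of Axin2, Nkd1, Nkd2 and Tcf7 held 0. These counts describe the letters of short windows and nothing beyond them. The first windows of Axin2, Lef1 and Tcf7 were rich in G and C, at 70%, 67.3% and 76.3%, where the median of all windows was 52.7%.

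After filtering, 9354 non-lesional cells, 7339 day 2 cells and 4714 day 7 cells were kept, with medians of 9458.5, 7506 and 10802.5 unique molecular identifiers (UMIs, 1 per counted RNA molecule) per cell. The libraries shared 14 to 24 cell barcodes by pair. Cells were placed in 31 clusters without using the 7 genes or other WNT genes, and each cluster was called fibroblast-like and so on from its marker genes. Fibroblast-like cells numbered 6485, 4072 and 2316, papilla-like cells 120, 0 and 252, and keratinocyte-like cells 1522, 1 and 90 in non-lesional skin, day 2 and day 7. Levels are in CPM: for each class and library, the summed UMIs of a gene per 1000000 UMIs of all genes. A gene is called higher or lower in a pair of libraries at a ratio of at least 2 or at most 0.5 with 20 or more UMIs over the pair. The comparisons of day 2 and of day 7 with non-lesional skin share the non-lesional library.

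Taken over all cells, the 7 genes stood lowest in the day 2 wound. Axin2 was at 28.9 CPM in non-lesional skin (3112 UMIs), 2.08 at day 2 (246 UMIs) and 10.5 at day 7 (898 UMIs). Lef1 was at 15.7 CPM in non-lesional skin, 0.211 at day 2 and 15.8 at day 7. Lgr5 was at 19.0, 1.02 and 11.2 CPM in the same order. The day 7 library thus stood between the others for Axin2 and Lgr5, and at the non-lesional level for Lef1. At day 2 all 7 genes were at least 2-fold lower than in non-lesional skin, where 25% of 16459 genes tested were. At day 7, 2 of 7 (Axin2 and Nkd1) were lower, against 14% of 16618 genes, and none was higher. At day 7 against day 2 all 7 were at least 2-fold higher, against 22% of 16268 genes. At day 7 the median gene stood 0.29 (log2) above non-lesional skin and 0.24 above day 2. TMM factors, which remove most of that shift, made higher genes 49.5% of all calls in place of 60.9% against non-lesional skin, and 68.8% in place of 80.3% against day 2. With those factors 4 of 7 were lower at day 7 than in non-lesional skin, against 17.1% of all genes tested. Against day 2, 6 of 7 were higher, where 18% of all genes tested were. These sums mix the level in each cell type with the number of its cells, so the classes are described in turn.

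The order of the classes was different for each gene. In non-lesional skin Axin2 went from lymphoid cells (84.6 CPM) through Schwann- or melanocyte-like (50.5) and papilla-like cells (38.8) to keratinocyte-like (29.0), fibroblast-like (27.1) and pericyte- or smooth muscle-like cells (24.9). The intervals of neighbours overlapped except between papilla-like and keratinocyte-like cells. Nkd1 was highest in pericyte- or smooth muscle-like cells (149), above Schwann- or melanocyte-like (86.8) and papilla-like cells (70.3), which overlapped, and then fibroblast-like cells (20.6). Nkd2 went from papilla-like cells (216) to pericyte- or smooth muscle-like (75.0), then fibroblast-like (34.2) and Schwann- or melanocyte-like cells (31.6), the last 2 overlapping. Apcdd1 had overlapping intervals in pericyte- or smooth muscle-like (8.43), papilla-like (7.24) and fibroblast-like cells (6.99), all above keratinocyte-like cells (2.20). The inhibitors thus had their highest levels in 3 different classes.

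The receptor and the nuclear factors were more sharply placed. Lgr5 was at 30.2 CPM in fibroblast-like cells of non-lesional skin, above all other classes, of which Schwann- or melanocyte-like (4.74, 3 UMIs) and keratinocyte-like cells (3.59) came next. At day 7 keratinocyte-like cells (23.3) stood above fibroblast-like cells (13.3). Lef1 was highest in papilla-like cells in both libraries, followed in non-lesional skin by Schwann- or melanocyte-like (50.5) and lymphoid cells (24.7), without overlap. Tcf7 was highest in lymphoid cells, at 117 CPM in the non-lesional library and 114 at day 7, above papilla-like cells (88.8) in non-lesional skin and dendritic-like cells (49.2) at day 7. Dendritic-like cells of non-lesional skin had 0 UMIs of Axin2, Apcdd1, Lgr5 and Lef1 in 121 cells, which allows up to 2.48% of them to carry one.

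**Figure D1:**
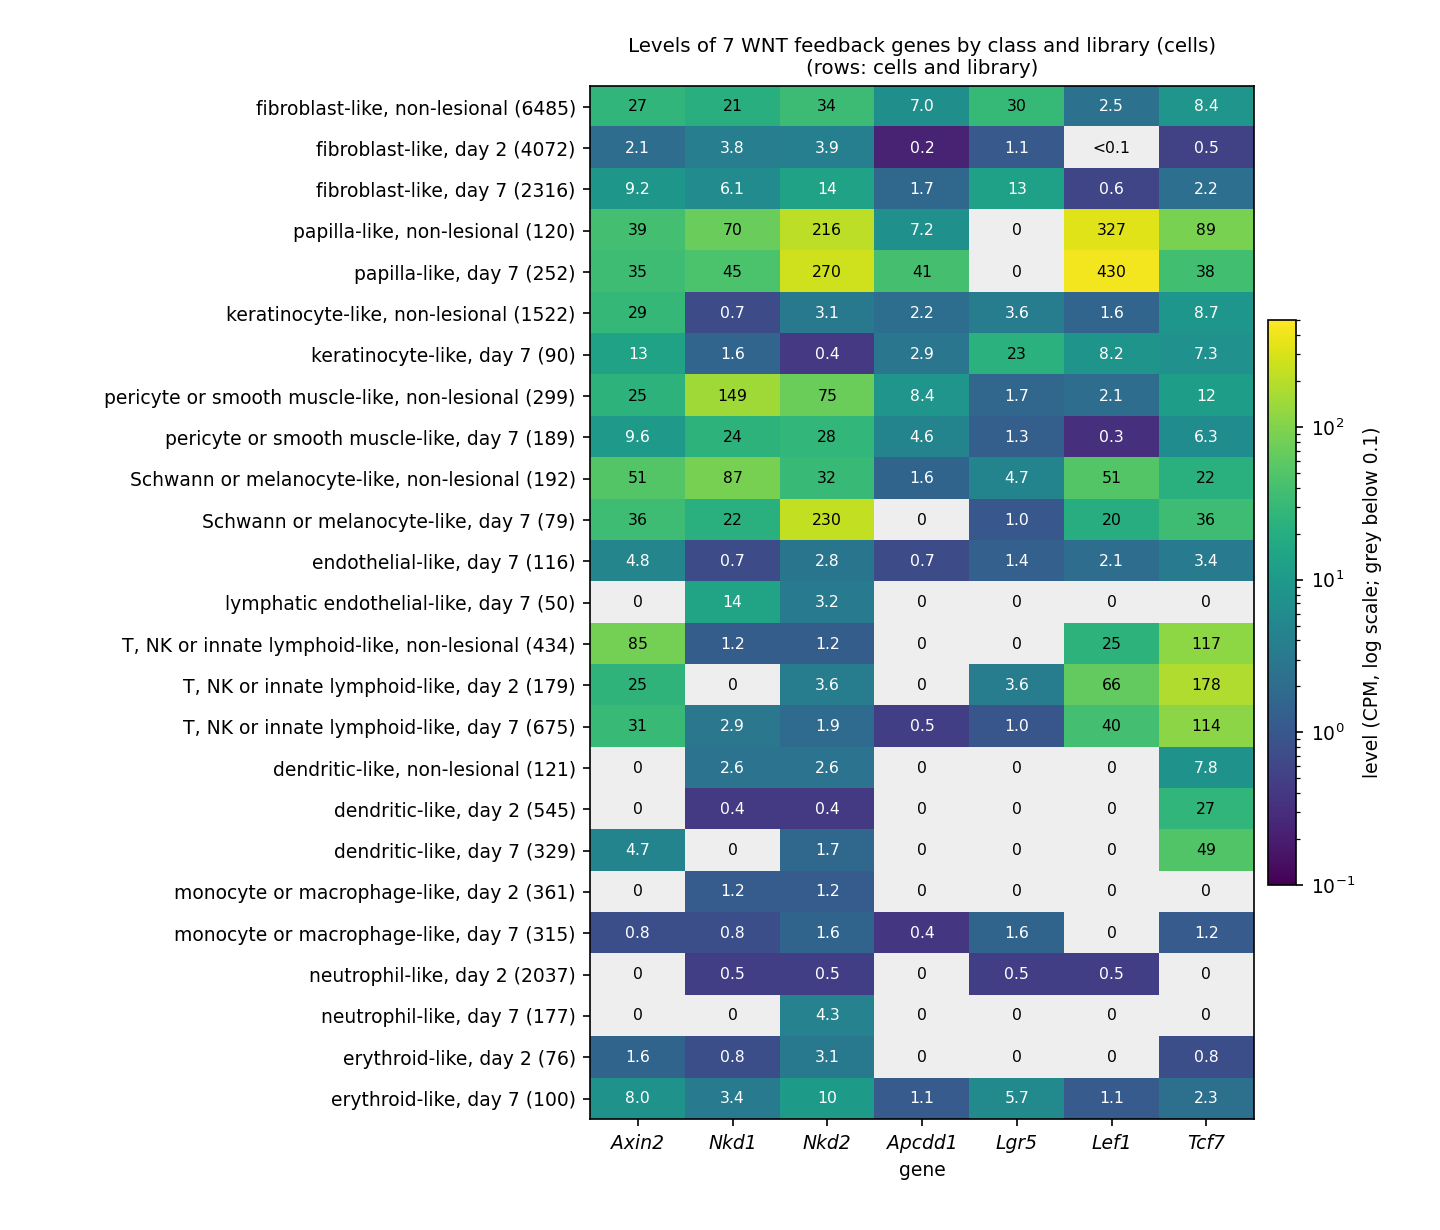
Levels of the 7 genes in each class and library with at least 50 cells, in CPM on a logarithmic colour scale, with the number of cells in brackets and the value printed in each field. Lef1 and Nkd2 are brightest in papilla-like cells, at 327 and 216 CPM in non-lesional skin. The row of day 2 fibroblast-like cells holds low values for all 7 genes, with Lef1 (0.0540 CPM) under the colour scale and drawn in grey.

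Fibroblast-like cells make the dermal matrix and form the largest class in each library. All 7 genes were highest here in non-lesional skin and lowest at day 2. Among the inhibitors, the levels of Axin2 were 27.1 CPM (interval 25.8 to 28.4) for non-lesional skin, 2.11 (1.85 to 2.40) for day 2 and 9.21 (8.49 to 9.97) for day 7. Nkd1 was at 20.6, 3.82 and 6.09 CPM. Nkd2 was at 34.2, 3.91 and 13.6 CPM. None of the intervals of these genes overlapped between libraries, with non-lesional skin highest and day 2 lowest in each. Apcdd1 was at 6.99 CPM in non-lesional skin, 0.225 at day 2 (25 UMIs in 4072 cells) and 1.69 at day 7. The ratio of day 2 to non-lesional skin was 0.0781 for Axin2 (0.0679 to 0.0896), and it was 0.185 for Nkd1 (0.166 to 0.207), the ratio nearest to 1 among the 7 genes.

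The receptor and the nuclear factors followed the same order of libraries in fibroblast-like cells. Lgr5, the R-spondin receptor, was at 30.2 CPM in non-lesional skin, 1.07 at day 2 and 13.3 at day 7. Lef1 was at 2.50 CPM (158 UMIs), 0.0540 (6 UMIs) and 0.589 (39 UMIs). Tcf7 was at 8.43, 0.540 and 2.25 CPM. In all 3 genes the intervals of the libraries did not overlap. Lgr5 was at 0.0354 of its non-lesional level at day 2 (0.0292 to 0.0427) and at 0.440 at day 7 (0.406 to 0.477), the day 7 ratio nearest to 1. Lef1 was at 0.236 of its non-lesional level at day 7 (0.162 to 0.336), while the ratio over all cells was 1.01. With each cell thinned to 1000 UMIs, the Lef1 ratio at day 7 was 0.698, from 23 non-lesional and 3 day 7 cells with a UMI, and at day 2 no UMI of Lef1 was left, which bounds the ratio at 0.198 or lower.

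**Figure D2:**
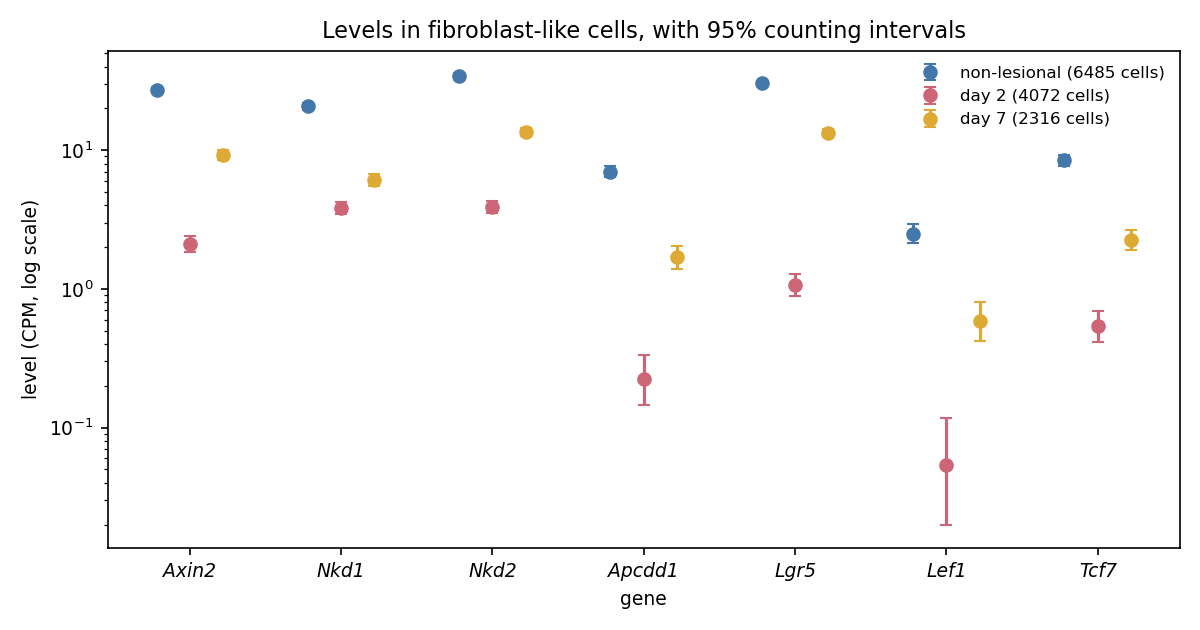
Levels of the 7 genes in fibroblast-like cells of each library, in CPM on a logarithmic axis. Points are 1 library each and bars are 95% counting intervals. For each gene the day 2 point is lowest and the non-lesional point highest, with the smallest step from day 2 to day 7 in Nkd1 (3.82 to 6.09 CPM).

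Counted together, 7 of 7 genes were at least 2-fold lower in fibroblast-like cells at day 2 than in non-lesional skin, where 18.4% of 15119 genes tested were lower and 27.9% higher. The median ratio was 0.0641 over the 7 genes and 1.22 over all genes. At day 7 against non-lesional skin, 7 of 7 were lower, against 12.5% of 14942 genes, with median ratios of 0.295 and 1.34. At day 7 against day 2, 6 of 7 were higher, against 14.9% of 15200 genes, with median ratios of 4.36 and 1.08. Nkd1 was the other, at a ratio of 1.59 (1.39 to 1.83). The median gene was thus shifted by 0.28, 0.42 and 0.11 on the log2 scale in the 3 pairs. Scaling by TMM factors gave 22.6% of genes lower and 22.3% higher at day 2 against non-lesional skin. It gave 17.2% lower and 17.9% higher at day 7 against non-lesional skin, and 8.68% lower and 13.3% higher at day 7 against day 2. The counts of the 7 genes were 7, 7 and 6 as before. Fibroblast-like cells differed in depth, with medians of 9264, 26109 and 26273 UMIs per cell in non-lesional skin, day 2 and day 7. After thinning to 1000 UMIs, 7 of 7 were lower at day 2 and 5 of 7 at day 7 than in non-lesional skin, with Lgr5 (0.575) and Lef1 (0.698) within 2-fold at day 7. The thinned day 2 ratios of Lgr5 and Tcf7 were 0.00931 and 0.153, where the unthinned ones were 0.0354 and 0.0641. The thinned Lgr5 ratio rests on very few day 2 UMIs, so its size is uncertain. Of the pair of wounds, 4 genes kept enough UMIs after thinning, and all 4 were higher at day 7. The shares of all genes past 2-fold were not computed after thinning, so the thinned counts have no background beside them.

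The share of cells with a UMI gave another picture before depth was matched. Axin2 was found in 18.2% of non-lesional fibroblast-like cells, 4.96% at day 2 and 18.4% at day 7, with medians of 9264, 26109 and 26273 UMIs per cell. After each cell was thinned to 1000 UMIs, leaving out 126, 55 and 40 shallower cells, Axin2 was found in 2.11%, 0.174% and 0.791%. The equal unthinned shares at day 7 and in non-lesional skin thus stood beside a lower level at day 7. In neutrophil-like cells of day 2, a cell type not known to use these genes, 0 to 1 UMI of each gene was found in 2037 cells with a median of 887 UMIs. Their upper limits were 1.77 CPM for 0 UMIs and 2.68 CPM for 1 UMI. The day 2 levels of Axin2, Nkd1 and Nkd2 in fibroblast-like cells were above the limit of the same gene. Those of Apcdd1, Lgr5, Lef1 and Tcf7 were below it. These limits come from the few UMIs of shallow cells, so the comparison cannot tell expression of these 4 genes from free RNA.

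Markers of other cells and of division moved with the libraries in fibroblast-like cells. The 12 papilla markers, none at 0 in any library, summed to 112 CPM in non-lesional skin, 8.76 at day 2 and 38.7 at day 7. The 10 keratinocyte markers, none at 0, summed to 144, 12.3 and 39.6 CPM. All 12 genes of dividing cells were at least 2-fold higher at both wound times, and they summed to 48.0, 1059 and 786 CPM. A UMI of the division genes Mki67 or Top2a was found in 1.14%, 61.9% and 37.8% of the cells. Without those cells the counts were 7 of 7 lower at day 2, 6 of 7 lower at day 7 against non-lesional skin (Lgr5 at 0.500), and 7 of 7 higher at day 7 against day 2. The shares of all genes past 2-fold were not computed for this subset, so the counts have no background beside them. The part of the papilla and keratinocyte markers in the results was not tested.

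Different clusters made up the fibroblast-like class in each library, and the 7 genes were unevenly spread over them. Of the 6485 non-lesional cells, 2262 were in a cluster led by Wfdc12 and Gal, 1677 in one led by Smpd3, Efhd1 and Pi16, and 1077 in one led by Myoc. A further 762 were in a cluster led by C6 and Tnmd and 688 in one led by Coch. Day 2 cells were in a cluster led by Thbd and Csf3 (2033) and one led by Cxcl14 and Saa1 (2006). Day 7 cells were mostly in a cluster led by Prss35 and Tnn (1500) and one led by Dlk1 and Mgp (468). Since most of these clusters held cells of nearly 1 library only, a difference between libraries within the class and a difference between these clusters cannot be told apart.

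Within non-lesional skin, Axin2 was at 49.9 CPM in the Wfdc12 cluster, 44.6 in the Coch cluster, 7.14 in the C6 cluster, 2.92 in the Myoc cluster and 2.84 in the Pi16 cluster. Nkd1 was at 71.2 CPM in the Coch cluster and 29.2 in the Wfdc12 cluster, and from 5.33 to 6.42 in the others. Nkd2 was at 78.7 and 61.9 CPM in those clusters and from 1.73 to 5.98 in the others. Axin2 and both Nkd genes were thus read mainly in a pair of clusters. Lgr5 had another distribution. It was at 79.2 CPM in the C6 cluster (766 UMIs), 44.6 in the Coch cluster, 30.4 in the Myoc cluster, 26.1 in the Wfdc12 cluster and 1.04 in the Pi16 cluster. Lef1 was at 14.4 CPM and Tcf7 at 27.9 CPM in the Coch cluster, their highest levels among these clusters. Without the Coch cluster, non-lesional fibroblast-like cells had 1.58 CPM of Lef1, beside 1.60 in keratinocyte-like cells. The part of free RNA in these values was not tested. The Pi16 cluster, which carries a known marker of adventitial and progenitor fibroblasts, had the lowest value of these 5 clusters for each of the 7 genes, with Axin2 close to the Myoc cluster and Nkd1 close to the C6 cluster. It had 0 UMIs of Tcf7 in 1677 cells, which allows a share of up to 0.179% of cells with a UMI.

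**Figure D3:**
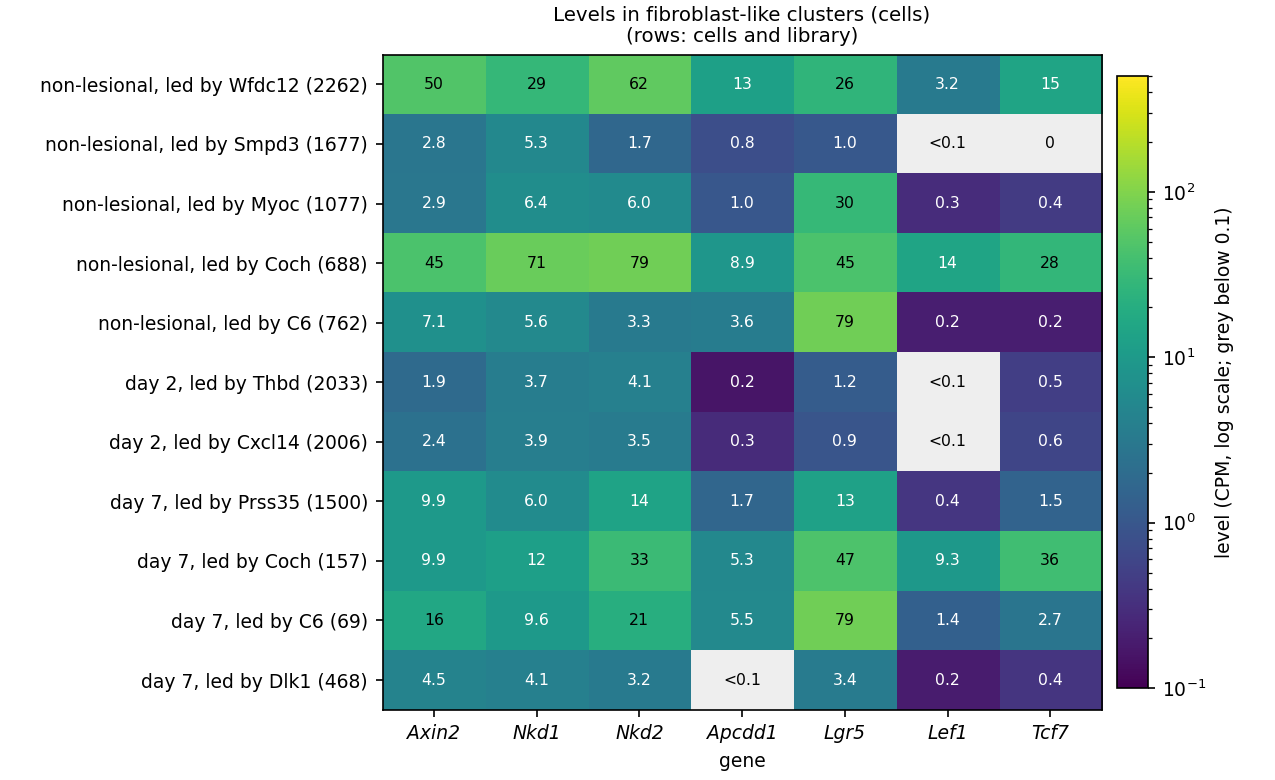
Levels of the 7 genes in fibroblast-like clusters with at least 50 cells in a library, in CPM on a logarithmic colour scale, with the number of cells in brackets. In non-lesional skin the clusters led by Wfdc12 and Coch are bright for Axin2, Nkd1 and Nkd2, and Lgr5 is brightest in the cluster led by C6 (79.2 CPM).

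Both day 2 clusters were low. Axin2 was at 1.88 CPM in the Thbd cluster and 2.42 in the Cxcl14 cluster, and Nkd1 at 3.74 and 3.88 CPM, and in both genes the intervals overlapped. At day 7 the Prss35 cluster was above the Dlk1 cluster in every one of the 7 genes. Axin2 was at 9.86 and 4.54 CPM in these clusters and Nkd2 at 14.0 and 3.22 CPM. Lgr5 had 661 UMIs in the Prss35 cluster (12.9 CPM) and 36 in the Dlk1 cluster. Apcdd1 had 86 UMIs in the Prss35 cluster and 1 UMI in the Dlk1 cluster. Of these 2 clusters the one with lower levels was thus led by Dlk1, an imprinted gene known from preadipocytes.

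The Coch and C6 clusters held at least 50 cells both in non-lesional skin and at day 7, so the libraries could be compared within them. In the Coch cluster, Axin2 was at 44.6 CPM in the non-lesional library and 9.93 at day 7, a ratio of 0.223 (0.127 to 0.366). Nkd1 there was at 71.2 and 12.3 CPM, a ratio of 0.172 (0.105 to 0.268), and Nkd2 at a ratio of 0.415 (0.308 to 0.552). The other 4 genes of this cluster were within 2-fold, with Lgr5 at a ratio of 1.05 (0.799 to 1.36) and Tcf7 at 1.30 (0.940 to 1.77). In this cluster 3 of 7 genes were lower, against 9.93% of 10680 genes. In the C6 cluster 5 of the 7 genes had enough UMIs, and none of the 5 was lower at day 7. Axin2 was at 7.14 CPM in the non-lesional library and 16.4 at day 7 (12 UMIs), a ratio of 2.30 (1.14 to 4.29), and Nkd2 at 3.31 and 20.6 CPM, a ratio of 6.21 (3.13 to 11.8). Lgr5 was at 79.2 and 79.5 CPM. Here 2 of 5 genes were higher, where 22.8% of 10043 genes were higher and 5.46% lower.

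Papilla-like cells formed 2 clusters, nearly 1 for each library. In non-lesional skin 119 of 120 papilla-like cells were in a cluster led by Slc26a7, Pappa2 and Prlr, with a median of 38285.5 UMIs per cell over the class. At day 7, 251 of 252 were in a cluster led by Wif1, Corin and Lrrn1, with a median of 5544.5. All 12 papilla markers were found in both. Fibroblast markers, none of 10 at 0, summed to 2496 CPM in the non-lesional cells and 6066 in those of day 7, and their part in the values was not tested. Corin, a protease of the papilla, was at 26.9 and 448 CPM, and Slc26a7, an anion transporter, at 1323 and 86.4 CPM. Cells with a UMI of both Lef1 and Corin numbered 65 in non-lesional skin (64 of them papilla-like), 0 of 7339 at day 2 and 165 at day 7 (161 papilla-like). The clusters and the libraries cannot be told apart in what follows, and at day 2 there were no cells to compare.

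Lef1, Nkd2 and Tcf7 were abundant in papilla-like cells. Lef1 was at 327 CPM in the non-lesional library (311 to 345) and 430 at day 7 (406 to 455), and it had a UMI in 95.8% and 79.8% of the cells. Nkd2 was at 216 and 270 CPM, with a UMI in 91.7% and 72.6%. Tcf7 was at 88.8 and 37.6 CPM. Lef1 and Nkd2 had ratios of 1.31 (1.21 to 1.42) and 1.25 (1.14 to 1.38), which became 0.910 and 0.867 with TMM factors, 0.849 and 0.809 with median-of-ratios factors and 1.69 and 1.49 after thinning, so their direction depended on the scaling. Tcf7 was lower at day 7, at a ratio of 0.423 (0.338 to 0.527), and it was under 0.5 with TMM factors (0.293), with median-of-ratios factors (0.274) and after thinning (0.476). The share of cells with these genes follows the depth of the cells as well as the level: thinned to 1000 UMIs, Lef1 was found in 21 of 119 cells of non-lesional skin and 73 of 250 of day 7.

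Among the inhibitors, Axin2 was nearly level in papilla-like cells, at 38.8 CPM in the non-lesional library and 35.4 at day 7, a ratio of 0.914 (0.704 to 1.18). The Axin2 ratio was 0.633 with TMM factors and 0.476 after thinning, from 5 cells with a UMI in each library. Nkd1 was at 70.3 and 45.2 CPM, a ratio of 0.643 (0.517 to 0.794) that was 0.445 with TMM factors and 0.415 with median-of-ratios factors, past 2-fold in both. Apcdd1 was at 7.24 CPM in the non-lesional library (31 UMIs) and 41.2 at day 7 (114 UMIs), a ratio of 5.69 (3.80 to 8.76). With cells thinned to equal depth the Apcdd1 ratio was 1.27, from 3 non-lesional and 8 day 7 cells with a UMI. Lgr5 had 0 UMIs in both, which allows up to 2.50% of non-lesional and 1.19% of day 7 papilla-like cells to carry one. Apcdd1 was the only one of the 7 genes at least 2-fold higher, against 35.6% of 10868 genes, and Tcf7 the only one lower without another scaling, against 11.4%. The median gene had a ratio of 1.48 in this pair, 0.57 on the log2 scale, and TMM factors left 20.6% of genes higher and 19.8% lower.

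**Figure D4:**
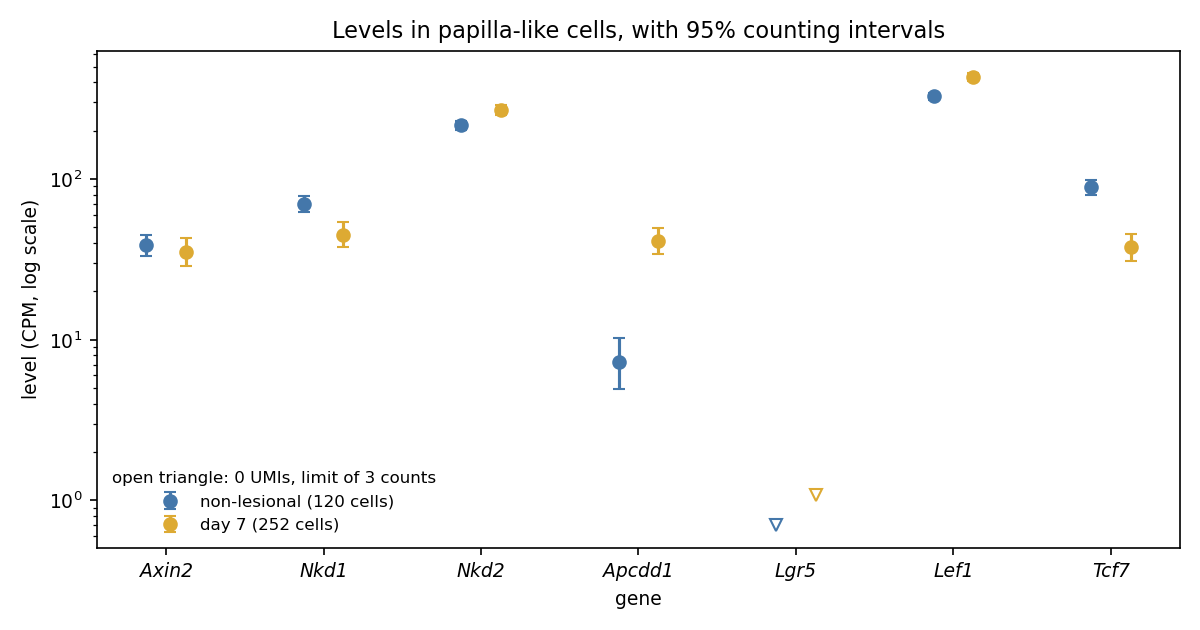
Levels in papilla-like cells of non-lesional skin and day 7, in CPM on a logarithmic axis, with 95% counting intervals. Open triangles mark 0 UMIs, drawn at the limit of 3 counts. Lef1 and Nkd2 are high in both libraries, Apcdd1 is higher at day 7 (7.24 and 41.2 CPM), and Lgr5 was not found.

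Set beside fibroblast-like cells of the same library, papilla-like cells were high in Lef1 and without Lgr5. Lef1 was at 327 CPM in the papilla-like and 2.50 in the fibroblast-like cells of non-lesional skin, and at day 7 at 430 and 0.589 CPM. Axin2 was at 38.8 and 27.1 CPM in non-lesional skin, and at 35.4 and 9.21 CPM at day 7. Lgr5 had the opposite arrangement, with 0 UMIs in papilla-like cells and 30.2 and 13.3 CPM in fibroblast-like cells. In individual papilla-like cells, 2 or more of the 7 genes were found in 94.2% in non-lesional skin and 70.6% at day 7. After thinning to 1000 UMIs these shares were 10.1% and 14.8%.

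In keratinocyte-like cells, the epithelium of epidermis and follicle, Axin2 was lower at day 7. It was at 29.0 CPM in the non-lesional library (976 UMIs) and 13.5 at day 7 (33 UMIs), a ratio of 0.465 (0.318 to 0.657). Within non-lesional skin it was highest in the basal cluster led by Krt15 and Krt5, at 46.8 CPM, against 15.7 in the cluster led by Lor and 20.8 in the cluster led by Mt4 and Krt1, both of the upper epidermis. Within the Krt15 cluster Axin2 was at 46.8 CPM in the non-lesional library and 17.3 at day 7, a ratio of 0.369 (0.235 to 0.555). The lower level at day 7 was thus also seen within the basal cluster, where the share of follicle cells was not examined. The day 2 library held 1 keratinocyte-like cell, so no level is given.

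Lgr5 and Lef1 went the other way in these cells. Lgr5, a marker of follicle stem cells, was at 3.59 CPM in the non-lesional library and 23.3 at day 7 (57 UMIs, in 14 cells), a ratio of 6.48 (4.64 to 8.94). Within the Krt15 cluster it was at 8.26 and 40.3 CPM, a ratio of 4.88 (3.46 to 6.81). Lef1 was at 1.60 and 8.17 CPM (20 UMIs, in 6 cells, at day 7), a ratio of 5.09 (2.89 to 8.65), and within the Krt15 cluster the ratio was 3.66 (2.03 to 6.34). Fibroblast markers, none of 10 at 0, summed to 1793 CPM in non-lesional and 1319 in day 7 keratinocyte-like cells, and papilla markers to 40.2 and 65.7 CPM, with 4 and 6 of 12 at 0. Only 90 cells stood behind the day 7 values. Tcf7 was at 8.67 and 7.35 CPM. The sparse genes were Nkd1, at 24 and 4 UMIs, and Nkd2, at 106 and 1 UMI, and the interval of the Nkd1 ratio of 2.29 (0.578 to 6.67) included 1. Of the 106 non-lesional UMIs of Nkd2, 16 were in the Krt15 cluster, which held 62 of the 90 day 7 cells. For Nkd2 the level and the mixture of clusters cannot be told apart. For Axin2, Lgr5 and Lef1 within the Krt15 cluster, the level and the mixture of cells inside it cannot be told apart either. Without doublet removal the Nkd1 ratio was 0.888, so its direction depended on that filter. By the rule 3 of 7 genes (Lgr5, Lef1 and Nkd1) were higher and 2 lower, against 12.7% and 10.5% of 12577 genes.

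Mural-like and glial-like cells carried both Nkd genes. In pericyte- or smooth muscle-like cells, which wrap vessels and move hairs, Nkd1 was at 149 CPM in the non-lesional library and 24.4 at day 7, a ratio of 0.164 (0.126 to 0.211). Nkd2 was at 75.0 and 28.3 CPM. The non-lesional class held 65 cells of a smooth muscle-like cluster led by Des and Myh11, with Nkd1 at 233 CPM and Nkd2 at 169 CPM, and the day 7 class only 4 of them. Within the pericyte-like cluster led by Rgs5, Nkd1 was at 82.7 and 22.0 CPM, a ratio of 0.266 (0.193 to 0.364). Nkd2 there went against the class, with 2 UMIs in 234 non-lesional cells and 67 UMIs in 185 cells of day 7 (22.4 CPM), a ratio of 14.9 (3.96 to 125). Fibroblast markers, none of 10 at 0, summed to 1953 CPM in the non-lesional class and 14220 at day 7, and their part in these values was not tested. In the class, 3 of 5 genes with enough UMIs (Axin2, Nkd1 and Nkd2) were lower, against 11.7% of 10657 genes. After thinning, the Axin2 ratio was 0.631, within 2-fold, the Nkd1 ratio 0.394 and the Nkd2 ratio 0.493, where median depths were 6244 and 12553 UMIs per cell. Higher genes were 66.2% of all calls here and 54.3% with TMM factors, at a median shift of 0.26 (log2).

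In Schwann- or melanocyte-like cells Nkd2 was at 31.6 CPM in the non-lesional library (20 UMIs in 192 cells) and 230 at day 7 (226 UMIs in 79 cells), a ratio of 7.29 (4.61 to 12.2). Nkd1 was at 86.8 and 22.4 CPM, a ratio of 0.258 (0.150 to 0.430). Thinning put the Nkd1 ratio at 0.518, within 2-fold, and the Nkd2 ratio at 8.21, where median depths were 2512.5 and 11195 UMIs per cell. The Schwann-like cluster held 191 of the 226 day 7 UMIs of Nkd2 and was at 33.2 CPM in the non-lesional library and 384 at day 7 (41 cells). The melanocyte-like cluster led by Dct and Pmel was at 24.7 and 72.1 CPM. Lef1 was at 50.5 and 20.4 CPM in the class. Fibroblast markers, none of 10 at 0, summed to 2949 and 8520 CPM in the class. In fibroblast-like cells of the same libraries Nkd2 was at 34.2 and 13.6 CPM, below the day 7 level of the Schwann-like cluster. Of 5 genes with enough UMIs, 1 was higher and 2 lower, against 18.7% and 13.1% of 8165 genes. Higher genes were 58.8% of all calls and 47.6% with TMM factors, at a median shift of 0.18 (log2).

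T, NK or innate lymphoid-like cells carried Axin2, Lef1 and Tcf7, and hardly any of the other 4 genes (0 to 6 UMIs each in a library). Tcf7, which supports naive and memory T cells, was at 117 CPM in non-lesional skin (interval 101 to 135). It was at 178 CPM at day 2 (132 to 236), and at day 7 the level was 114 (99.5 to 129). Lef1 was at 24.7, 65.5 (18 UMIs) and 39.6 CPM. Axin2 was at 84.6 CPM in the non-lesional library and at 25.5 (7 UMIs) and 31.4 CPM in the wounds. Its ratio was 0.301 at day 2 (0.119 to 0.637), or 0.180 after thinning (2 day 2 cells with a UMI), and 0.371 at day 7 (0.272 to 0.502). Lef1 at day 2 had a ratio of 2.65 (1.43 to 4.73), which became 2.06 with TMM factors, 1.95 with median-of-ratios factors and 1.31 after thinning. At day 2, 1 of 3 genes with enough UMIs was higher, against 19.3% of 7246 genes, and 1 lower, against 11.4%. At day 7 against non-lesional skin 1 of 3 was lower, against 6.18% of 9566 genes. Higher genes were 62.8% of all calls at day 2 and 80.3% at day 7, and 35.6% and 57.1% with TMM factors, at median shifts of 0.23 and 0.38 (log2). Keratinocyte markers summed to 391, 51.0 and 97.6 CPM in these cells (0, 6 and 0 of 10 at 0) and fibroblast markers to 1898, 2730 and 12907 CPM (none of 10 at 0), and their part in the Axin2 levels was not tested.

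The lymphoid clusters divided Tcf7 and Lef1. In the regulatory T-like cluster led by Ctla4, Icos and Foxp3, Tcf7 was at 5.51 CPM at day 7 (6 UMIs in 280 cells) and Lef1 at 33.0 CPM (36 UMIs). In the cluster led by Il17a and Xcl1, Tcf7 was at 232 CPM and Lef1 at 52.9 CPM at day 7. In the cluster led by Cd3g and Cd7, Tcf7 was at 122 CPM in the non-lesional library and 247 at day 7, with 0 UMIs of Lef1 in both. Day 7 held 280 cells of the regulatory T-like cluster and non-lesional skin 34. Within the Il17a cluster Tcf7 was at 126, 220 and 232 CPM in non-lesional skin, day 2 and day 7, and Axin2 at 73.7, 30.7 and 31.0 CPM. Of the 8 genes of naive or memory T cells, 5 were higher in the class at day 2 than in non-lesional skin and none lower, where 19.3% of all genes were higher and 11.4% lower. At day 7, 4 were higher and 1 lower, where 25.2% and 6.18% of all genes were, with median ratios at day 2 and day 7 of 3.19 and 2.24 against 1.17 and 1.30 over all genes. S1pr1, which guides lymphocytes out of lymph nodes, was at 16.1, 138 and 101 CPM in the 3 libraries.

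In dendritic-like cells, which present antigen, Tcf7 was at 7.77 CPM in non-lesional skin (6 UMIs), 27.1 at day 2 and 49.2 at day 7, a ratio of 6.33 at day 7 (2.82 to 17.6). It was the one gene of the 7 with 20 or more UMIs in each pair. The highest level was in the cluster led by Ccl22 and Ccr7, genes known from mature dendritic cells, with 91.9 CPM at day 2 and 169 at day 7, where 44 of 100 cells had a UMI. In the cluster led by Cd74 and H2-Ab1, Tcf7 was at 3.94, 1.21 and 1.79 CPM. The Ccl22 cluster held 1 cell of non-lesional skin, 166 of day 2 and 100 of day 7, so the level and the mixture of the class cannot be told apart. T cell markers summed to 73.9, 259 and 403 CPM in dendritic-like cells (6, 1 and 1 of 10 at 0) and to 3899, 3185 and 4332 CPM in lymphoid cells. Genes at least 2-fold higher made up 20.8% of 8370 at day 2 and 16.4% of 8441 at day 7 in this class. Higher genes were 70.1% of all calls at day 2 and 58.7% with TMM factors, at a median shift of 0.22 (log2). The day 2 ratio of Tcf7 was 3.49 (1.52 to 9.87). Thinned to 1000 UMIs, the non-lesional cells held 0 UMIs of Tcf7, so the day 7 level was at least 2.52-fold higher and the day 2 ratio, at least 0.732, had no direction at that depth. Monocyte- or macrophage-like and neutrophil-like cells of the wounds had at most 4 UMIs of any of the 7 genes in a library.

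The share of each gene's UMIs held by each class shows how these levels added up. Lgr5 was read mostly in fibroblast-like cells in all libraries, with 93.6%, 98.3% and 92.2% of its UMIs there in non-lesional skin, day 2 and day 7. These cells held 58.7%, 93.8% and 77.3% of the UMIs of all genes. Lef1 was read mostly in papilla-like cells where there were any, with 82.7% of its UMIs there in non-lesional skin and 87.8% at day 7, against 3.98% and 3.23% of the UMIs of all genes. At day 2, 18 of the 25 Lef1 UMIs were in lymphoid cells. Tcf7 was divided: fibroblast-like cells held 36.8%, 34.5% and 21.8% of it, papilla-like cells 26.2% (non-lesional) and 15.2% (day 7), and lymphoid cells 13.1%, 28.2% and 34.3%. For Apcdd1 the papilla-like share was 5.44% in non-lesional skin and 45.4% at day 7.

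**Figure D5:**
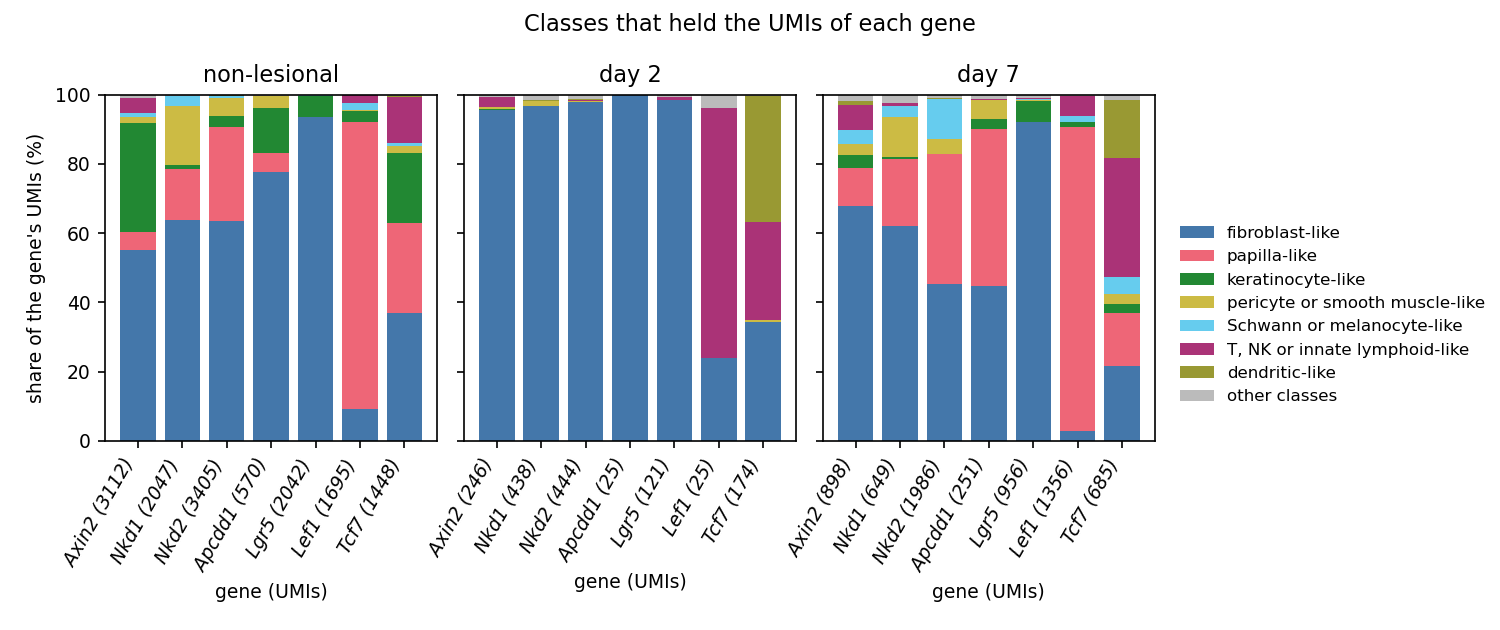
Share of the UMIs of each gene held by each class in the 3 libraries, in percent, with the number of UMIs in brackets under each bar. Lgr5 is held by fibroblast-like cells throughout, Lef1 by papilla-like cells in non-lesional skin and day 7 (82.7% and 87.8%), and at day 2 the few UMIs of Lef1 and Tcf7 are mostly in lymphoid, dendritic-like and fibroblast-like cells.

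Over the 25 combinations of class and library with at least 50 cells, the genes most like each of the 7 were found by Pearson correlation of log2(CPM + 5) among 11396 genes, as a description, since the points share libraries and depth. For Axin2 the first was Znrf3 (r = 0.87), a ubiquitin ligase that removes frizzled receptors and is itself a known WNT target, followed by Ptpn13 and Armcx5. For Nkd1 it was Rab3a (0.94), followed by Chpt1 and Lrrc75a. For Nkd2 it was Enpp2 (0.92), the enzyme that makes lysophosphatidic acid and 1 of the papilla markers used for naming, followed by Mmp16 and Abat. For Apcdd1 it was Bmp3 (0.92), followed by Zic4 and Scube3. For Lgr5 it was Wfdc12 (0.87), which leads the largest non-lesional fibroblast-like cluster, followed by Adh1 and Akr1c18. For Lef1 it was Gprasp2 (0.92), followed by Bcl2 and Zcchc18, and for Tcf7 Zcchc11 (0.89), followed by Cbx7 and Ccdc117. Among the 7 genes themselves the highest r was 0.84, between Nkd1 and Nkd2. Lgr5 had r from -0.11 to 0.27 with the other 6.

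Other genes of the pathway were mixed in direction in fibroblast-like cells. Of 20 other WNT-induced genes, 18 had enough UMIs at day 2 against non-lesional skin, 5 of them at least 2-fold higher and 5 lower, where 27.9% and 18.4% of all genes were, and the median ratio was 0.934, against 1.22 over all genes. Tnfrsf19, a receptor expressed under WNT signalling, was at 14.0 CPM in non-lesional skin, 0.0270 at day 2 (3 UMIs) and 2.17 at day 7. Wif1, a secreted WNT antagonist, was at 21.4, 0.648 and 4.71 CPM, and Sp5, a transcription factor known as a direct target, at 3.86, 0.180 and 0.377 CPM. At day 7 against non-lesional skin 6 of 19 were higher and 7 lower, where 26.8% and 12.5% of all genes were, with a median ratio of 0.813 against 1.34 over all genes. Wisp1, a matricellular protein, was at 23.4 CPM in the non-lesional library and 236 at day 7, and Sox9, a transcription factor of matrix-producing cells, at 6.36 and 57.2 CPM.

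The lists of pathway machinery, read against the same shares and medians of all genes, were also mixed. Of the 14 nuclear partners of beta-catenin, 2 were higher and 5 lower at day 2, and 2 higher and 2 lower at day 7, with median ratios of 0.951 and 1.21. The co-repressors Tle1 and Tle4 stood at 49.7 and 32.2 CPM in the non-lesional library, 13.0 and 7.76 at day 2, and 10.6 and 8.76 at day 7. Of the 16 listed genes of the destruction complex and the Dishevelled family 15 were used here, of which none was higher and 2 were lower at day 2, Dvl3 at 3.67 and 1.28 CPM and Frat2 at 11.8 and 4.96 CPM, and at day 7 none of the 15 passed 2-fold against non-lesional skin. Their median ratios were 0.966 and 1.05. Of the 19 R-spondins, frizzled receptors and co-receptors, 2 were higher and 4 lower at each wound time, with median ratios of 0.758 and 0.935. Rspo1, a ligand of Lgr5, was at 54.8 CPM in non-lesional skin, 0.693 at day 2 and 2.26 at day 7.

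In papilla-like cells some other feedback genes differed between non-lesional skin and day 7, while their list as a whole stood near all genes. Notum, an enzyme that inactivates WNT ligands, was at 257 and 46.6 CPM, a ratio of 0.181 (0.150 to 0.218). Tnfrsf19 was at 14.2 and 49.9 CPM. Of the 20 other WNT-induced genes 14 had enough UMIs, with 6 higher and 2 lower, where 35.6% and 11.4% of all genes were, and a median ratio of 1.46, against 1.48 over all genes. Among R-spondins and receptors 6 of 17 were higher and 2 lower, near the same shares of all genes. Rspo3 was at 224 and 1349 CPM, Rspo2 at 10.5 and 149 CPM, and the receptor Fzd10 at 0.467 (2 UMIs) and 92.2 CPM. In keratinocyte-like cells Tcf7l1, a repressor of the TCF/LEF family known from follicle stem cells, was at 1.96 CPM in the non-lesional library and 18.4 at day 7.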

How the data were processed

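Droplet-based 3' single-cell libraries were made from skin digested with collagenase D and DNase1, with Chromium v2 reagents and a Novaseq6000 instrument, per the labels' protocols. The authors deposited whole-number UMI counts for each gene and barcode, unnormalized. The submitters' processing notes name Cell Ranger 3.0.2, Seurat 3.0 and mm10, while the file headers name Cell Ranger 5.0.0. The cell caller: not given in the sources used here. Library totals were 123088680, 138046172 and 102345327 UMIs over 10857, 8707 and 7317 barcodes in the order non-lesional, day 2, day 7.

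Barcodes with under 200 genes (192, 390 and 543) or over 10% mitochondrial UMIs (368, 372 and 1632) were removed, as were the highest Scrublet scores at 0.8% per 1000 barcodes (943, 606 and 428). Scrublet's own threshold marked 373, 1 and 0. Counts were scaled to 10000 per cell, and 2000 variable genes without the WNT genes, 30 principal components, 20 neighbours and Leiden resolution 1 gave the clusters (scanpy 1.11.5, leidenalg 0.10.2), named from 16 marker lists by each marker's mean level relative to its highest cluster, averaged over a list. Lists for B or plasma, skeletal muscle and adipocyte cells were not used, since fewer than a 0.5 share of their markers was detected in any 1 cluster (a UMI in 10% of cells). Ratios of summed counts carry conditional binomial intervals, levels Poisson intervals and shares Clopper-Pearson intervals. A gene at 0 is bounded with 3 counts. The procedure was tested on simulated data. TMM factors came from edgeR 4.0.16.

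All 7 genes are described. From each other list the 3 genes with the largest log2 ratio in a class and pair were eligible for naming, and the 3 most correlated genes of each member. The members and lists were chosen with earlier results of these data known. Of 27998 identifiers, 27645 were found in GENCODE M21. In non-lesional, day 2 and day 7 libraries the median mitochondrial share was 1.62%, 0.889% and 1.86%.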

Additional observations from a re-analysis of the deposited data

Results flagged for a closer look

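Some of the 7 genes were at least 2-fold higher in one class and at least 2-fold lower in another under the same pair of libraries, with counting intervals of the ratios that excluded 1. The differences between classes were not tested, since each group is 1 library. At day 2 against non-lesional skin, Lef1 had a ratio of 2.65 in lymphoid cells and 0.0216 in fibroblast-like cells. Tcf7 had 3.49 in dendritic-like and 0.0641 in fibroblast-like cells. At day 7 against non-lesional skin, Apcdd1 had 5.69 in papilla-like and 0.242 in fibroblast-like cells. Lef1 had 5.09 in keratinocyte-like cells, 0.403 in Schwann- or melanocyte-like cells and 0.236 in fibroblast-like cells. Lgr5 had 6.48 in keratinocyte-like and 0.440 in fibroblast-like cells. Nkd2 had 7.29 in Schwann- or melanocyte-like cells, 0.396 in fibroblast-like, 0.130 in keratinocyte-like and 0.378 in pericyte- or smooth muscle-like cells. The keratinocyte-like ratio of Nkd2 rests on 1 UMI at day 7. Within the pericyte-like cluster led by Rgs5 the Nkd2 ratio was 14.9, against the class. The smooth muscle-like cluster of that class held 65 cells in non-lesional skin and 4 at day 7. Tcf7 had 6.33 in dendritic-like, 0.267 in fibroblast-like and 0.423 in papilla-like cells. The Ccl22 cluster, where dendritic-like Tcf7 was highest, held 1 non-lesional cell. In the Cd74 cluster Tcf7 was at 3.94, 1.21 and 1.79 CPM in non-lesional skin, day 2 and day 7. After thinning to 1000 UMIs some ratios of this section were within 2-fold. At day 2 this was Lef1 in lymphoid cells (1.31). At day 7 these were Apcdd1 in papilla-like cells (1.27), and Lef1 (0.698) and Lgr5 (0.575) in fibroblast-like cells. For Tcf7 in dendritic-like cells at day 2, thinning gave only a bound, at least 0.732, with no direction. Lef1 in keratinocyte-like and in Schwann- or melanocyte-like cells kept too few UMIs after thinning for a ratio. The same held for Nkd2 in keratinocyte-like cells, so these ratios were not checked at equal depth.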

How the results depend on the processing

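No paired analysis was possible because each group is 1 library, so the groups share 1 replicate number and there is no test. The 7 genes lower in fibroblast-like cells at day 2 numbered 7 under each of the 12 alternatives except the log2(CPM + 5) scale, where there were 6. On that scale, which pulls the ratios of low levels toward 1, the counts were 3 lower at day 7 against non-lesional skin and 2 higher at day 7 against day 2 in fibroblast-like cells. Over all cells at day 7 against non-lesional skin, the 2 lower genes became 4 with TMM factors, 5 with median-of-ratios factors, 4 after thinning to 1000 UMIs and 1 on the log2 scale, and thinning put 1 gene higher in place of 0. The share of all genes lower in that pair was 14% with total UMIs, 17.1% with TMM factors and 18.3% with median-of-ratios factors. Of 92 ratios, 848 alternative values were computed: 657 were within the counting interval of the reported ratio, 190 were outside it, and 1 was of a called ratio that changed direction. This was Nkd1 in keratinocyte-like cells at day 7, 0.888 without doublet removal. A further 42 alternatives left a library at 0 UMIs of the gene and gave a bound only. The cause was not tested. Values over all cells do not use the clusters and were not computed under the other clusterings. The alternatives without dividing cells and without the Coch cluster were chosen after seeing the data. Without the Coch cluster, the 3 fibroblast-like counts were 7, 7 and 6. The other clusterings each left 1 or 2 clusters unnamed, with 696 to 803 cells. Whether these cells were those of the Coch cluster is not shown here. Shares of all genes past 2-fold were computed with total UMIs, TMM factors and median-of-ratios factors, and not for the other alternatives. Low UMI counts limit Lef1 and Apcdd1 in day 2 fibroblast-like cells and all day 7 keratinocyte-like values.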
